A study of Mus musculus with 8 samples.

Results

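The genes described here are 8 that encode parts of the basement membrane which parietal endoderm lays down around the early mouse conceptus, *Lama1*, *Lamb1*, *Lamc1*, *Col4a1*, *Col4a2*, *Sparc*, *Nid1* and *Hspg2*, and *Thbd*, a thrombin receptor on the surface of the same cells. All 9 are called basement membrane genes here for short. They were fixed by name, and every array probe whose RefSeq transcript belongs to one of them was read in every embryo. This gave 13 probes of the 55681 on the array, and all 13 were among the 33068 probes that passed the filters on dim signal. *Nid1* had 3 probes, *Sparc* and *Hspg2* had 2 each, and the other 6 genes had 1. The study asked how fathers with a hypomorphic allele of *Eed*, a core subunit of the histone methyltransferase PRC2, affect their offspring. Its main comparison was of heterozygous offspring of homozygous and heterozygous fathers. The arrays here belong to another comparison, of offspring without the allele from heterozygous and wild-type fathers. Whole-embryo RNA was measured on one-colour Agilent arrays from 8 wild-type embryos at E8.5, all on a mixed C57bl6/129 background of the *Eed* l7Rn5-1989SB line and all from wild-type mothers. Of these, 4 were sired by *Eed* wt/wt males and 4 by males heterozygous for the l7Rn5-1989SB allele, written *Eed* hypo/wt here, with 2 female and 2 male embryos in each group. Levels are log2 signal intensities relative to the 75th percentile of the array, so that 0 is a probe at that percentile, and fold changes are those of the *Eed* hypo/wt group over the *Eed* wt/wt group.

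A basement membrane is a thin sheet of extracellular matrix built from a network of laminin trimers and a network of collagen IV trimers, held together by nidogen and by the proteoglycan perlecan. Parietal endoderm cells migrate over the inner face of the trophoblast and secrete an unusually thick sheet of this kind, Reichert's membrane, through which the conceptus exchanges nutrients before the placenta takes over. Endothelium and most epithelia make many of the same proteins, and none of the 9 genes is restricted to parietal endoderm.

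*Col4a1* and *Col4a2* are neighbouring genes transcribed in opposite directions from a common promoter region, and their signals are compared across embryos below, so the promoter windows of both are shown. Each window runs from 250 bases before to 50 bases after the start site in the RefSeq annotation of build GRCm38.p6, and is written 5′ to 3′ on the strand of its gene. Capitals mark matches to CCAAT (the CCAAT box, or ATTGG on the other strand) and to GGGCGG (the GC box, or CCGCCC on the other strand).
Col4a1, chr8:11312777-11313076, minus strand: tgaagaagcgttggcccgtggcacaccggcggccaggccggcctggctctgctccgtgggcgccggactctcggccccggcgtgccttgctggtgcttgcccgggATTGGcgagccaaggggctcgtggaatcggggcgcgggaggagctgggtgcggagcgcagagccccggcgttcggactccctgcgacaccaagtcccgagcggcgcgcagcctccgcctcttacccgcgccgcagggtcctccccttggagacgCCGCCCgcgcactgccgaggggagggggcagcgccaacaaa
Col4a2, chr8:11312555-11312854, plus strand: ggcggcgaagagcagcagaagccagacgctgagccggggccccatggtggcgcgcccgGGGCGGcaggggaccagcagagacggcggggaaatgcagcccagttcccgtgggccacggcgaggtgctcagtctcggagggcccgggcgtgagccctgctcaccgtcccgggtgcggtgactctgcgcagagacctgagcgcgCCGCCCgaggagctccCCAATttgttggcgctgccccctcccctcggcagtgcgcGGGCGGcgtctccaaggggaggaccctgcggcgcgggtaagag
The start sites lie 21 bases apart and the windows share 78 bases. The *Col4a1* window held 1 CCAAT and 1 GGGCGG match and the *Col4a2* window 1 and 3, and the same GGGCGG match was in both, in the bases they share. Each CCAAT match was in 1 of the windows only. Of the 9 genes, 6 matched a promoter window in the table, and the windows of the other 4 lie on other chromosomes. CCAAT was found in 4 of the 6 windows and in 37.4% of the 32851 windows of the table. GGGCGG was found in 5 of the 6 and in 35.7% of all windows, with *Hspg2* holding 5 matches and *Sparc* none. TATAAA, the TATA box, read on both strands, was in none of the 6 and in 13.6% of all windows. The dinucleotide CG occurred 37 times in the *Col4a1* window and 33 times in that of *Col4a2*, against a median of 7. These matches describe letters in the windows and do not show that a factor binds there.

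The 8 arrays gave between 29203 and 39530 probes well above background. *Eed* wt/wt father replicate 1 (39530 probes) and *Eed* hypo/wt father replicate 3 (38878 probes) stood apart from the other 6 embryos, which had at most 35486. The father comparison was therefore also run without both. For some genes below, values are also given with 1 or both of these arrays left out. Median local background was 133 on the array of *Eed* hypo/wt father replicate 4. It was 30 to 32 on the other arrays of that group and 50 to 51 in the *Eed* wt/wt group. The 4 arrays of a group were hybridised on a slide of their own, so the father's genotype and the slide cannot be told apart. In the *Eed* wt/wt group 3 embryos share the first part of an embryo code that the sources used here do not explain. Whether they are littermates is not known. The p-values, SDs and intervals treat the 4 embryos of a group as independent and would be too optimistic if they are related. Fitted as a random block, the code gave a correlation of 0.54 between embryos that share it. The label gives the tissue as embryo without saying which membranes came with it. All 14 fixed markers of parietal endoderm, among them the transcription factors *Sox7*, *Gata4* and *Gata6*, and the 11 markers of visceral endoderm with a probe, among them *Afp* and *Ttr*, were well above background on every array.

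No difference between the offspring of *Eed* hypo/wt males and those of *Eed* wt/wt males passed the test at any of the 9 basement membrane genes. Limma called 0 of the 13 probes as differing at least 2-fold with a p under 0.01 after Benjamini-Hochberg adjustment, where 0% of all tested probes were called. At an unadjusted p under 0.05 it also counted 0 of 13, against 4.39% of all tested probes, and 1 or 2 in 7 of 23 other settings. The 2 groups of embryos overlapped at all 13 probes, while 3.22% of all tested probes did not overlap. Taking the brightest probe of each gene, 6 of the 9 were higher in the *Eed* hypo/wt group and 3 were lower, against 50.7% of all tested probes higher, and the median log2 fold change was 0.03, against 0.00 over all probes. This split depended on the scaling. Aligning arrays on their medians instead moved every fold change by the same amount and brought the median of all probes to -0.10. With it 2 of the 9 were higher, as were 7950 of all 33068 tested probes. The 95% intervals of the 9 brightest probes ran from -0.33 to 0.46 on the log2 scale, so that decreases of more than 1.25-fold and increases of more than 1.37-fold lay outside the interval of each of these probes. Over all 13 probes the intervals were wider, from -1.02 to 0.80. The adjusted p of each of the 13 probes was 1.00 (limma).

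The 3 laminin genes encode the alpha, beta and gamma chains of the laminin trimer of the early embryo. *Lama1*, the alpha chain, measured 4.34, 4.24, 4.47 and 4.23 in replicates 1 to 4 of the *Eed* wt/wt group and 4.34, 4.15, 4.08 and 4.40 in the same order in the *Eed* hypo/wt group. The lowest embryos were replicates 3 and 2 of the *Eed* hypo/wt group and the highest was replicate 3 of the *Eed* wt/wt group, with the rest of both groups between them. Group means were 4.32 ± 0.11 and 4.24 ± 0.15 (SD, n = 4 each), a log2 fold change of -0.08 (standard error 0.10, 95% interval -0.31 to 0.16). *Lamb1*, the beta chain, measured 4.83, 5.09, 4.94 and 5.04 against 5.07, 5.01, 4.85 and 5.08, and here replicate 1 of the *Eed* wt/wt group and replicate 3 of the *Eed* hypo/wt group were the lowest of the 8. Its means were 4.975 ± 0.114 and 5.004 ± 0.105 (SD, n = 4 each), and its log2 fold change was 0.03 (standard error 0.09, 95% interval -0.17 to 0.23). *Lamc1*, the gamma chain shared by most laminins, had 3.95, 4.14, 4.16 and 4.12 against 4.22, 4.07, 3.96 and 4.19. The same embryos of each group were lowest, close to each other and below the other 6. With means of 4.09 ± 0.10 and 4.11 ± 0.12 (SD, n = 4 each), *Lamc1* had a log2 fold change of 0.02 (standard error 0.09, 95% interval -0.19 to 0.22).

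*Col4a1* and *Col4a2* encode the chains that form the main collagen IV network. The *Col4a1* probe is printed on 10 spots of each array, whose SD within an array was 0.0243 to 0.0585 on the log2 scale, well under its range of 0.44 between embryos. *Col4a1* measured 3.28, 3.56, 3.53 and 3.31 with *Eed* wt/wt fathers and 3.54, 3.43, 3.12 and 3.48 with *Eed* hypo/wt fathers. Replicate 3 of the *Eed* hypo/wt group was the lowest embryo, and replicates 1 and 4 of the *Eed* wt/wt group were next to it. Means of 3.42 ± 0.14 and 3.39 ± 0.19 (SD, n = 4 each) gave a log2 fold change of -0.03 (standard error 0.12, 95% interval -0.31 to 0.25). *Col4a2* was 2.65, 2.82, 2.92 and 2.47 against 2.90, 2.82, 2.48 and 2.78. Replicate 4 of the *Eed* wt/wt group and replicate 3 of the *Eed* hypo/wt group, 1 embryo from each side, were lowest and nearly level. The means were 2.71 ± 0.20 and 2.75 ± 0.18 (SD, n = 4 each) and the log2 fold change was 0.03 (standard error 0.13, 95% interval -0.28 to 0.34).

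**Figure D1:**
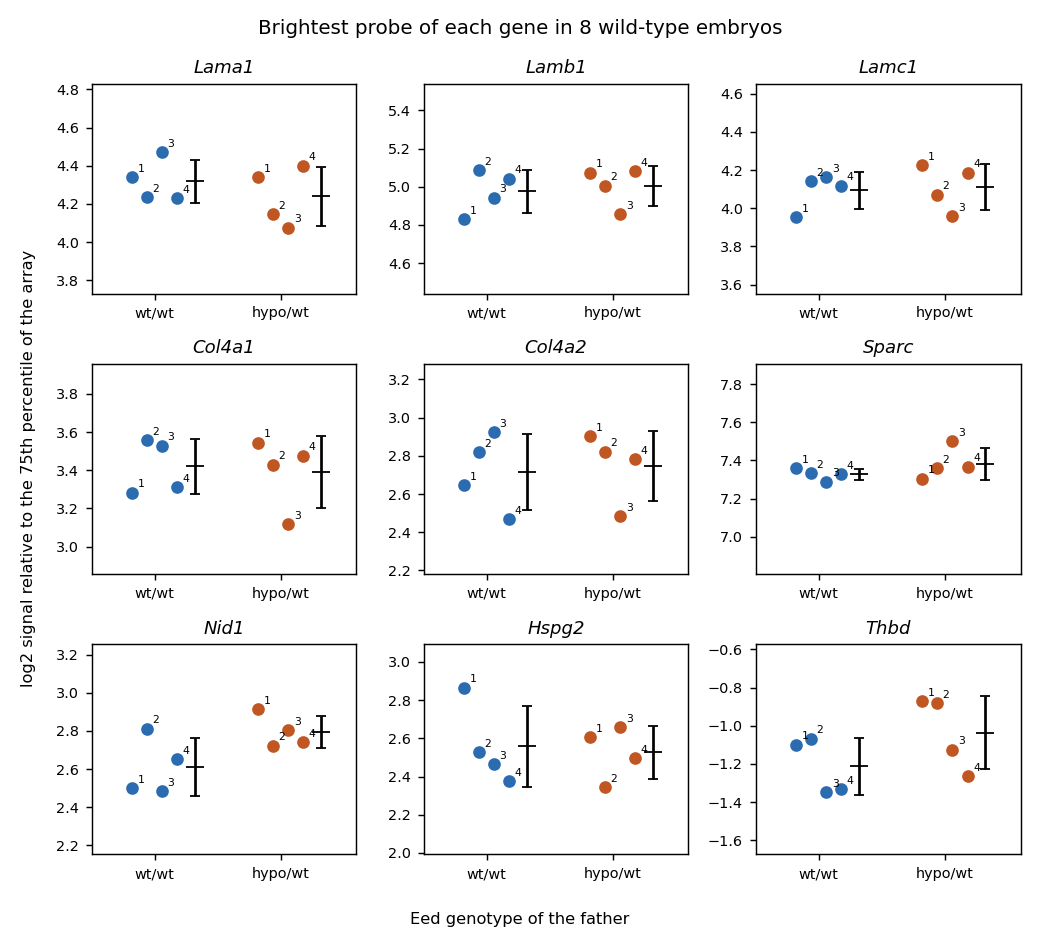
Log2 signal relative to the 75th percentile of the array for the brightest probe of each of the 9 genes in 8 embryos, by the *Eed* genotype of the father. Points are embryos with their replicate number, bars are the mean and SD of 4, and every panel spans the same log2 range; the groups overlap in every panel, with *Nid1* and *Thbd* showing the largest differences of means (0.18 each).

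*Nid1* encodes nidogen, which binds both laminin and collagen IV, and it had the largest difference among the brightest probes. That probe measured 2.50, 2.81, 2.48 and 2.65 with *Eed* wt/wt fathers and 2.91, 2.72, 2.80 and 2.74 with *Eed* hypo/wt fathers. Replicates 1 and 3 of the *Eed* wt/wt group were low, but replicate 2 of that group lay above 3 of the 4 embryos of *Eed* hypo/wt fathers. Its means were 2.61 ± 0.15 and 2.79 ± 0.09 (SD, n = 4 each), a log2 fold change of 0.18 (standard error 0.09, 95% interval -0.04 to 0.40) with an unadjusted p of 0.0934 and an adjusted p of 1.00 (limma). The other *Nid1* probes went opposite ways, with log2 fold changes of 0.21 (standard error 0.25, 95% interval -0.38 to 0.80) and -0.31 (standard error 0.18, 95% interval -0.73 to 0.11). The first of these measured -3.93, -4.33, -4.46 and -4.23 against -3.61, -3.72, -4.03 and -4.73, and the second -3.94, -3.29, -3.79 and -3.51 against -4.28, -4.00, -3.76 and -3.74. Both spread over about 1 log2 unit between embryos (1.12 and 0.99), against 0.43 for the brightest probe. Their log2 fold changes ran from 0.07 to 0.45 and from -0.41 to -0.20 as single embryos were left out, with 0.45 without replicate 4 of the *Eed* hypo/wt group.

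*Hspg2* encodes perlecan, the heparan sulfate proteoglycan of basement membranes. Its brightest probe measured 2.86, 2.53, 2.47 and 2.37 with *Eed* wt/wt fathers and 2.61, 2.34, 2.66 and 2.50 with *Eed* hypo/wt fathers. Replicate 1 of the *Eed* wt/wt group was the highest embryo and replicate 3 of the *Eed* hypo/wt group the next, the reverse of their place in *Lamb1*, *Lamc1* and *Col4a1*. The log2 fold change was -0.03 (standard error 0.13, 95% interval -0.33 to 0.26), between means of 2.56 ± 0.21 and 2.53 ± 0.14 (SD, n = 4 each). The second *Hspg2* probe measured -3.15, -2.97, -3.14 and -2.77 against -3.59, -3.64, -3.14 and -3.08. Replicates 1 and 2 of the *Eed* hypo/wt group were the lowest embryos, while replicates 3 and 4 fell within the *Eed* wt/wt group. Its log2 fold change of -0.35 (standard error 0.16, 95% interval -0.74 to 0.03) had the smallest p of the 13 probes (unadjusted p = 0.0649, adjusted p = 1.00, limma).

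*Sparc* encodes a secreted glycoprotein that binds calcium and collagen IV and is abundant in parietal endoderm. Its brightest probe varied least of the 9 genes, over 0.21 log2 units in all, with 7.36, 7.33, 7.29 and 7.33 in the *Eed* wt/wt group and 7.30, 7.36, 7.50 and 7.37 in the *Eed* hypo/wt group. Replicate 3 of the *Eed* hypo/wt group was the highest embryo, and the other 7 ran from 7.29 to 7.37. Means were 7.33 ± 0.03 and 7.38 ± 0.08 (SD, n = 4 each), and the log2 fold change was 0.06 (standard error 0.07, 95% interval -0.10 to 0.21). The second *Sparc* probe was far more variable, at 2.55, 2.50, 2.50 and 1.92 against 2.11, 2.55, 2.20 and 1.23. Replicate 4 was the lowest embryo of each group, and the other 3 embryos of *Eed* wt/wt fathers lay close together. Its log2 fold change was -0.34 (standard error 0.29, 95% interval -1.02 to 0.33), which ran from -0.52 to -0.08 as single embryos were left out, -0.08 being the value without replicate 4 of the *Eed* hypo/wt group.

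*Thbd* encodes thrombomodulin, the thrombin receptor of endothelium, trophoblast giant cells and parietal endoderm, and is the 1 member that is not a matrix protein. It measured -1.10, -1.07, -1.35 and -1.33 with *Eed* wt/wt fathers and -0.87, -0.88, -1.12 and -1.26 with *Eed* hypo/wt fathers. Replicates 3 and 4 of the *Eed* wt/wt group were lowest and replicates 1 and 2 of the *Eed* hypo/wt group highest, while replicates 3 and 4 of the latter fell within the range of the former. From means of -1.21 ± 0.15 and -1.04 ± 0.19 (SD, n = 4 each), the log2 fold change was 0.18 (standard error 0.12, 95% interval -0.11 to 0.46) (unadjusted p = 0.188, adjusted p = 1.00, limma). In bulk samples such as these, a smaller share of cells of a type and less RNA per cell cannot be told apart, for *Thbd* or any of the other genes.

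**Figure D2:**
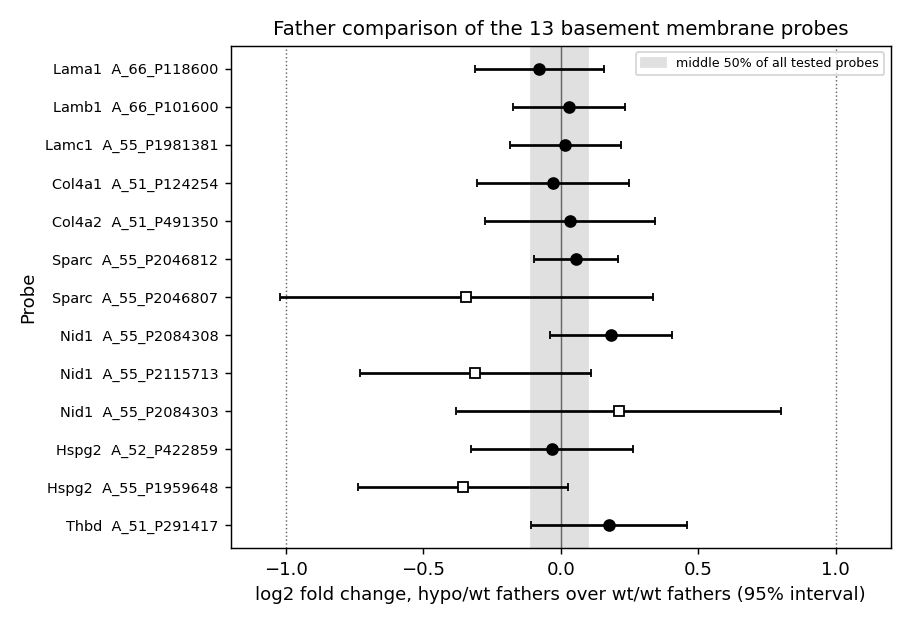
Log2 fold change of each of the 13 probes, *Eed* hypo/wt over *Eed* wt/wt fathers, with its 95% interval from limma. Filled circles are the brightest probe of a gene and open squares its other probes, the grey band holds the middle 50% of all 33068 tested probes (-0.11 to 0.10), and dotted lines mark 2-fold; the interval of every probe includes 0, and those of the 4 other probes are the widest.

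Embryos differed from each other more than the groups did, and part of this followed 2 arrays. The mean deviation of the 9 genes from their 8-array means was -0.03, 0.05, -0.01 and -0.09 for replicates 1 to 4 of the *Eed* wt/wt group and 0.12, 0.00, -0.07 and 0.03 for the *Eed* hypo/wt group. Replicate 1 of the *Eed* hypo/wt group was highest and replicate 4 of the *Eed* wt/wt group lowest. The 2 arrays with the most probes above background, *Eed* wt/wt father replicate 1 and *Eed* hypo/wt father replicate 3, were the 2 lowest embryos for *Lamb1*, *Lamc1* and *Col4a1*, 3 of the 9 genes, and the same was true of 6.72% of all tested probes. For *Hspg2* they were the 2 highest, as for 23.4% of all tested probes. Their mean lay below that of the other 6 embryos for *Col4a1* (difference -0.27), *Col4a2* (-0.22), *Lamb1* (-0.20) and *Lamc1* (-0.20), and above it for *Hspg2* (0.29) and *Sparc* (0.10), where the median over all tested probes was 0.10. The number of genes with these 2 embryos lowest was 2 under quantile normalization, 3 under normexp background correction and 8 with arrays shifted by their own medians. Whether the arrays or the embryos themselves account for this was not tested.

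**Figure D3:**
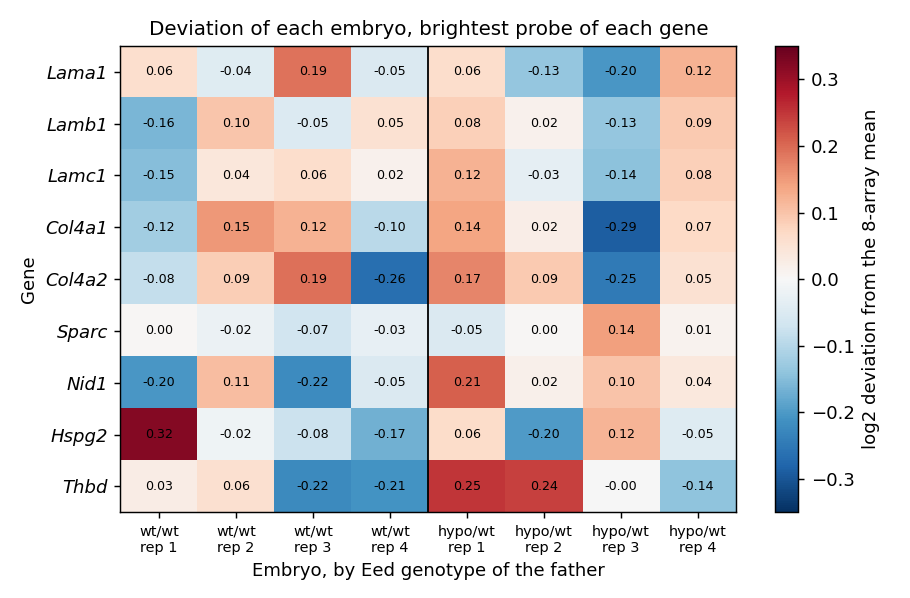
Deviation of each embryo from the 8-array mean, on the log2 scale, for the brightest probe of each gene (rows) in each embryo (columns, by the *Eed* genotype of the father, separated by a line). *Eed* wt/wt father replicate 1 and *Eed* hypo/wt father replicate 3 are low for *Lamb1*, *Lamc1*, *Col4a1* and *Col4a2* and high for *Hspg2* (0.32 and 0.12).

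Since laminin and collagen IV are secreted as trimers, the signals of their subunits were compared across the 8 embryos, in 4 pairs that share the arrays and their scaling. *Col4a1* and *Col4a2*, the genes with the shared promoter region shown above, correlated with a Pearson r of 0.889 (exact permutation test, two-sided, p = 0.00464, 0.0177 adjusted over 4 pairs) and a Spearman rho of 0.714 (exact permutation p = 0.0576, adjusted 0.111). Without the 2 embryos farthest from the *Col4a1* median, which are the 2 arrays that stood apart, r was 0.890. *Lamb1* and *Lamc1* gave an r of 0.863 (exact permutation p = 0.00885, adjusted 0.0177) and a rho of 0.714 (exact permutation p = 0.0576, adjusted 0.111). Without the same 2 embryos r fell to 0.340, so this relation rests on them. *Lama1* gave an r of 0.173 with *Lamb1* (exact permutation p = 0.672, rho 0.214 with exact permutation p = 0.619) and 0.547 with *Lamc1* (exact permutation p = 0.165, rho 0.667 with exact permutation p = 0.0831), or -0.05 and 0.228 without the 2 embryos farthest in *Lama1*. A slide held 4 embryos, too few for an r of its own, and with the mean of each slide removed r was 0.908 for the collagen pair, 0.862 for *Lamb1* and *Lamc1*, 0.235 for *Lama1* and *Lamb1* and 0.607 for *Lama1* and *Lamc1*. Leaving out *Eed* hypo/wt father replicate 3 alone took the adjusted p of the collagen pair to 0.0635 (r = 0.854) and that of *Lamb1* and *Lamc1* to 0.0726 (r = 0.804), by exact permutation in both cases. Where arrays were aligned on their medians, both *Lama1* pairs had an r above 0.95 (0.960 and 0.978). That scaling adds the same constant to every gene of an array, so these r also hold the differences between those constants.

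**Figure D4:**
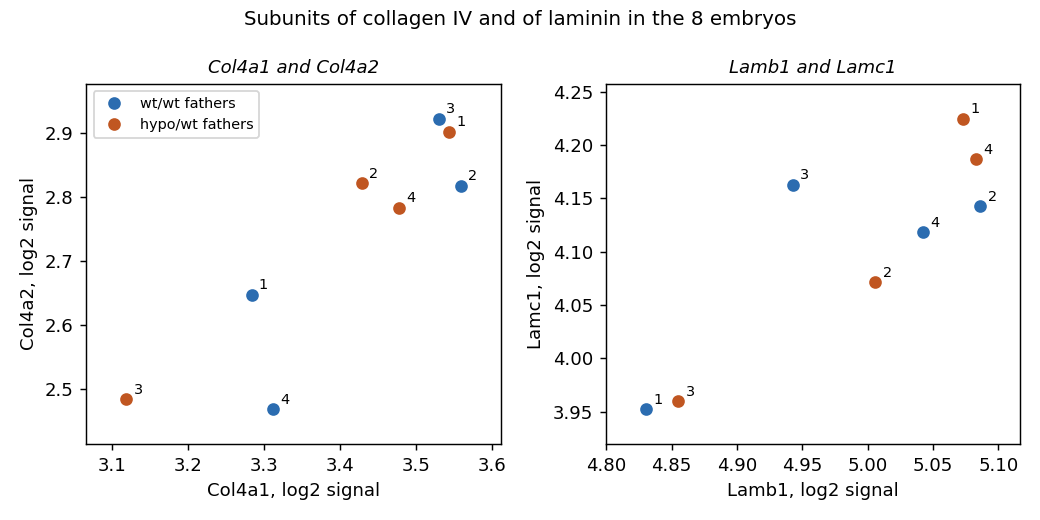
Log2 signal of *Col4a2* against *Col4a1* (left) and of *Lamc1* against *Lamb1* (right), brightest probes, one point for each of the 8 embryos with its replicate number, coloured by the *Eed* genotype of the father. The collagen genes rise together over the whole range (r = 0.889), while on the right 2 low embryos sit apart from a group of 6 within which r is 0.340.

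Each group held 2 embryos of each sex, so the sexes were compared with the father's genotype as a term. Of the 13 basement membrane probes, limma called 0 at a fold change of at least 2 with an adjusted p under 0.01 (0.0333% of all tested probes), and 1 had an unadjusted p under 0.05 (3.28% of all tested probes). This was the brightest *Nid1* probe, with a mean of 2.61 in females and 2.79 in males, a log2 difference of 0.18 (standard error 0.07, unadjusted p = 0.0404, adjusted p = 1.00, limma). The females measured 2.50, 2.48, 2.72 and 2.74 and the males 2.81, 2.65, 2.91 and 2.80, so that both males of each father group were above both females of that group, while the sexes overlapped across the groups. The other brightest probes differed between the sexes by -0.13 (*Col4a2*) to 0.05 (*Lamb1* and *Thbd*), male minus female. The father effect did not differ detectably between the sexes at any of the 13 probes: limma called 0 interactions, where 0% of all tested probes were called, and counted 0 at an unadjusted p under 0.05, against 2.23% of all tested probes. The interaction estimates of the 9 brightest probes ran from -0.26 (*Lamb1*) to 0.43 (*Hspg2*, unadjusted p = 0.121), wide beside the effects themselves with 2 embryos per cell.

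The rest of the basement membrane was read through fixed lists, with the brightest tested probe of each gene. Of 24 other basement membrane genes, 21 were tested. Limma called 0 of them, and at an unadjusted p under 0.05 it counted 1 that was higher in the *Eed* hypo/wt group (2.11% of all tested probes) and 0 that were lower (2.28%). This was *Lamb3*, the beta chain of an epithelial laminin, at -2.41, -2.36, -2.48 and -2.31 with *Eed* wt/wt fathers and -1.87, -1.77, -2.03 and -2.02 with *Eed* hypo/wt fathers. Every embryo of the second group was above every embryo of the first, while the groups did not overlap at 3.22% of all tested probes. The log2 fold change was 0.47 (standard error 0.08, unadjusted p = 0.000643, adjusted p = 0.834, limma). The alpha chain gene *Lama3* measured -3.00, -2.79, -2.68 and -3.24 against -2.94, -2.58, -1.13 and -2.63. Replicate 3 of the *Eed* hypo/wt group, 1 of the arrays that stood apart, was far above the rest, and the log2 fold change of 0.61 was 0.21 without it. The alpha chain gene *Lama4* had 0.26, while *Lama5*, *Nid2* and *Agrn*, which encodes the proteoglycan agrin, had -0.05, 0.04 (0.14 without the same embryo) and -0.08. The collagen IV chain gene *Col4a3* was not well above background on any array, and *Col4a5* and *Col4a6* had log2 fold changes of -0.07 and -0.02. The median of the list was 0.04, against 0.00 for all tested probes.

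Collagen IV is hydroxylated, folded and cross-linked by dedicated enzymes and chaperones before and after secretion, and all 15 genes of this list were tested. None passed an unadjusted p of 0.05, against 4.39% of all tested probes. With *Eed* hypo/wt fathers 13 of the 15 were higher, against 50.7% of all tested probes, with a median log2 fold change of 0.06. With arrays aligned on their medians 7 of the 15 were higher, against 7950 of all 33068 tested probes, and the median was -0.05. The cross-linking enzyme genes *Loxl2* and *Pxdn* had log2 fold changes of -0.28 and 0.21, the lysyl hydroxylase gene *Plod1* had 0.19, and the collagen chaperone gene *Serpinh1* had 0.17 (0.09 without *Eed* hypo/wt father replicate 3). Of 14 receptor genes for basement membranes 13 were tested, with a median of 0.00 and 1 at an unadjusted p under 0.05, against 4.39% of all tested probes. This was *Bcam*, a receptor for laminin alpha 5 chains, at 0.61, -0.12, 0.06 and -0.03 against 0.99, 1.10, 0.67 and 0.46. The groups overlapped, and the log2 fold change was 0.68 (standard error 0.21, unadjusted p = 0.0122, adjusted p = 1.00, limma). The integrin genes *Itga6* and *Itgb1*, whose products join into a laminin receptor, had -0.02 and 0.14, or -0.18 and 0.13 without *Eed* hypo/wt father replicate 3.

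Since the label does not say which tissues were left on the embryo, lists of cell type markers were set beside the 9 genes, each summed over its brightest probes on the linear scale, in units of the 75th percentile of the array. The 9 basement membrane genes themselves summed to 257 to 264 in the *Eed* wt/wt group and 261 to 270.4 in the *Eed* hypo/wt group, a sum to which *Sparc* contributes most. The 14 parietal endoderm markers summed to 256 to 266 and 229 to 273, a sum to which *Krt18* contributes most. Of these markers 0 had an unadjusted p under 0.05, against 4.39% of all tested probes. The median log2 fold change was 0.06 (-0.05 with arrays aligned on their medians). The largest differences in this list were -0.38 for *Fst*, 0.18 for *Dab2* and 0.15 for *Plat*. Visceral endoderm, 11 of 12 genes on the array, summed to 554 to 779 and 686 to 711, with 0 at an unadjusted p under 0.05 (4.39% of all tested probes). Its lowest sum was that of *Eed* wt/wt father replicate 4, the embryo with the lowest *Col4a2* and the lowest mean over the 9 genes. The largest log2 fold changes were -0.44 for *Apoa4*, -0.36 for *Apob* and 0.21 for *Hnf4a*. *Apoa4* had -0.25 without *Eed* hypo/wt father replicate 3 and -0.12 without both arrays that stood apart.

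Endothelium, which also makes collagen IV, laminins and *Thbd*, had all 10 markers higher with *Eed* hypo/wt fathers, against 50.7% of all tested probes. None of them passed an unadjusted p of 0.05, against 4.39% of all tested probes. The median was 0.07, and the sums were 23.4 to 30.6 and 25.7 to 32.1. With arrays aligned on their medians 4 of the 10 were higher, against 7950 of all 33068 tested probes. Quantile normalization gave 7 of the 10 (13776 of all probes) and normexp 9 (19305 of all probes). *Eng*, *Tek* and *Tie1* had the largest log2 fold changes, 0.18, 0.18 and 0.18, and *Tek* had 0.37 without *Eed* hypo/wt father replicate 3. Of 10 trophoblast markers 9 were on the array and 7 were tested, while *Ctsq* and *Tpbpa* were not well above background on any array. The list summed to 21.2 to 46.8 and 24.4 to 51.2, with *Gcm1* contributing most. The giant cell hormone gene *Prl3d1* measured 0.73, -0.68, 0.82 and -0.81 against 0.03, -0.35, -2.99 and -0.27. Replicate 3 of the *Eed* hypo/wt group was far below the rest. The log2 fold change of -0.91 was -0.21 without it and 0.03 without both arrays that stood apart. *Plac1* had 0.53 and *Hand1* 0.21. These were 0.51 and 0.34 without *Eed* hypo/wt father replicate 3, and 0.34 and 0.26 without both arrays that stood apart. Of the 7 tested genes 0 had an unadjusted p under 0.05, against 4.39% of all tested probes. The median of the list was -0.04, with 3 genes higher and 4 lower. The 8 decidua markers, maternal tissue, summed to 10.5 to 16.3 and 8.91 to 11.5, and 7 of them were tested. The median log2 fold change of these 7 was -0.01, with 3 higher (*Wnt4* 0.21, *Hand2* 0.19 and *Cd55* 0.04) and 4 lower. Of the 7, 1 had an unadjusted p under 0.05, against 4.39% of all tested probes. This was the decidual prolactin gene *Prl8a2*, at 1.99, 2.92, 1.56 and 2.31 with *Eed* wt/wt fathers and 0.72, 0.31, -2.61 and 0.54 with *Eed* hypo/wt fathers. The groups did not overlap, as for 3.22% of all tested probes. The log2 fold change was -2.45 (standard error 0.75, unadjusted p = 0.0127, adjusted p = 1.00, limma). Without replicate 3 of the *Eed* hypo/wt group, the lowest embryo, it was -1.67 (unadjusted p = 0.00122, limma). The smallest adjusted p with an embryo left out was 0.378 (limma). Among 10 markers of the embryo proper, with sums of 39.2 to 48.8 and 41.3 to 44.3, 1 had an unadjusted p under 0.05, against 4.39% of all tested probes. This was *Pax3* with -0.22 (unadjusted p = 0.0317, or 0.0784 without *Eed* wt/wt father replicate 4, adjusted p = 1.00, limma). Its other tested probe also had -0.22 (unadjusted p = 0.0285, limma). The part of these markers in the levels of the 9 genes was not tested.

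**Figure D5:**
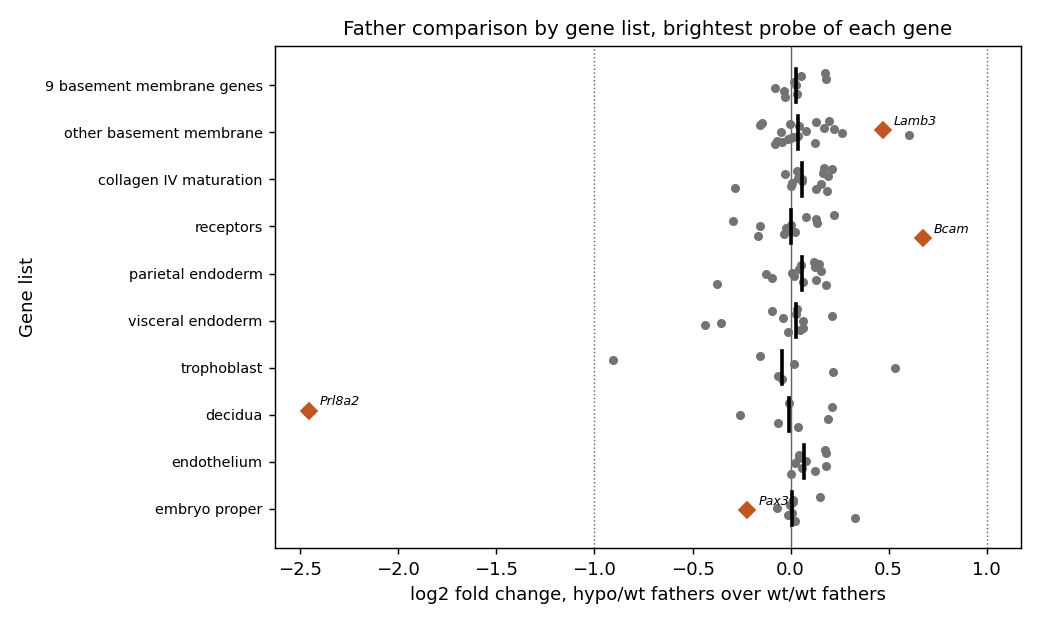
Log2 fold change, *Eed* hypo/wt over *Eed* wt/wt fathers, of the brightest tested probe of each gene in the 9 basement membrane genes and 9 other lists. Grey circles are genes, orange diamonds those at an unadjusted p under 0.05 (none passed after adjustment), thick bars the median of a list and dotted lines 2-fold; the 9 genes lie between -0.08 and 0.18, while *Prl8a2* in the decidua list lies at -2.45.

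The mean deviation of the 9 genes in each embryo was mainly that of the collagen chains, with which it had a Pearson r of 0.825 (*Col4a2*) and 0.803 (*Col4a1*), and least that of *Hspg2* (r = 0.00) and *Sparc* (r = -0.466), each gene being part of the mean. Of 15368 other genes, those whose brightest probe followed this profile most closely over the 8 embryos were *Cptp*, *Tmem106b*, *Slc7a7*, *Bmp6*, *Sap18*, *S100a11*, *Dpp4*, *Tpd52*, *Colec11* and *Edem3*, with r between 0.938 and 0.970. These are the highest of 15368 values over only 8 points that share the arrays, and are given as a description. In *Bmp6*, a growth factor gene among them, the range over the 8 embryos was 0.86 log2 units.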

How the data were processed

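RNA of 8 wild-type embryos was hybridised to one-colour Agilent 8x60K arrays, 1 array for each embryo. The authors scanned the slides and used Agilent Feature Extraction (version 11.0.1.1) to obtain, for each spot, the deposited intensity, from which background and spatial trends within the array had been removed. No scaling between arrays had been applied. A deposited series-wide table holds the same intensity values rounded to 3 significant digits; 0 of its columns were left unused, and it served as an alternative.

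After removal of control spots and outlier spots, the deposited intensity was put on the log2 scale, the 75th percentile of its array was subtracted, and replicate spots were averaged. Probes were tested if they lay outside the lowest 20% by mean level and 4 or more of the 8 arrays had them well above background. All tested probes were fitted in 1 limma model (limma 3.58.1 and data.table, version 1.17.8, under R 4.3.3) with Benjamini-Hochberg adjustment, and called at an adjusted p under 0.01 and at least 2-fold, as in the study. The study's methods name no percentile and no test. Exact permutation tests and figures were made in Python 3.11.15 (numpy 2.4.6, pandas 2.3.3, scipy 1.17.1, matplotlib 3.10.9). A RefSeq gene table of assembly GRCm38.p6 gave symbols for 27235 of the 28685 probes that carry a RefSeq accession, and RefSeq promoter windows of the same assembly gave the sequences. The test was checked on simulated data.

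The 9 genes, the other lists and the tests were chosen with earlier results of these data known. All 9 genes are named with every probe. In each other list the genes named are those at an unadjusted p under 0.05, or else the 3 with the largest change. A few others (*Lama3*, *Lama4*, *Lama5*, *Nid2*, *Agrn*, *Col4a5*, *Col4a6*, *Serpinh1*, *Itga6*, *Itgb1*, *Wnt4*, *Hand2*, *Cd55* and the markers *Sox7*, *Gata4*, *Gata6*, *Krt18*, *Gcm1*, *Afp* and *Ttr*) were named after their values were seen, for their place beside the 9 or in their list. The 10 genes most like the mean profile of the 9 complete the rule. The alternatives were other scalings and background correction, filters, covariates, blocks, moderation, weights, thresholds, averaged probes and left-out embryos. The number of arrays limits the precision, since intensities carry no counts.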

Additional observations from a re-analysis of the deposited data

Results flagged for a closer look

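Dixon's test was applied to the lowest and the highest embryo of each father group at each of the 13 probes, 26 groups of 4 in all. At the 95% limit, which chance passes in about 1 of 20 groups (1.3 of 26), 1 group passed. In that group the second *Sparc* probe stood apart in *Eed* wt/wt father replicate 4, whose distance to the next embryo made up 0.929 of the spread of the group, at 1.92 against 2.50 to 2.55 in the other 3 embryos. The brightest *Sparc* probe in that embryo measured 7.33, within the 7.29 to 7.36 of the other 3.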

How the results depend on the processing

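Each array group lay on a slide of its own, 4 embryos per group limit the precision, and the correlations without both arrays that stood apart and the lists with embryos left out were chosen after seeing the data. Over 23 alternatives, 0 of 295 probe values of the 9 genes were called (smallest adjusted p 0.429, limma), and 22 changed sign, the largest of these at -0.14, for *Sparc* with its 2 probes averaged. The number of all probes called stayed at 0 except for 1 without *Eed* wt/wt father replicate 1, 1 without *Eed* hypo/wt father replicate 4 and 1 without both arrays that stood apart (range with an embryo left out 0 to 1). None of the member probes was among them. Member probes at an unadjusted p under 0.05 numbered 0 here, 2 with array weights, without *Eed* hypo/wt father replicate 4 or without both arrays, 1 with normexp, with sex as a term or without *Eed* wt/wt father replicate 2 or *Eed* hypo/wt father replicate 3, and 0 in the other 16 settings.

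With arrays aligned on their medians, the median log2 fold change of the 13 probes was -0.089 in place of 0.017, and *Col4a2* had -0.072, *Lamc1* -0.089, *Lamb1* -0.077 and the brightest *Sparc* probe -0.051. This follows from the constant it adds to each array. Quantile normalization gave -0.084 for a *Nid1* probe (A_55_P2084303) and normexp 0.057 for *Hspg2* and -0.058 for *Lamb1*. The embryo code as a random block gave 0.00056 for *Col4a1*, and leaving out both arrays 0.017 for *Col4a1* and 0.027 for *Hspg2*. With an embryo left out, the median ran from -0.048 to 0.062, *Col4a1* from -0.079 to 0.062, *Col4a2* from -0.048 to 0.12, *Lamb1* from -0.020 to 0.079, *Lamc1* from -0.031 to 0.067 and *Hspg2* from -0.092 to 0.071. The lowest median was without *Eed* wt/wt father replicate 4.

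Aligned medians raised r to 0.960 for *Lama1* and *Lamb1* and 0.978 for *Lama1* and *Lamc1*, with the same constant added to both genes on each array. Normexp gave -0.026 for *Lama1* and *Lamc1* and 0.604 for *Lamb1* and *Lamc1*. The cause of the normexp values was not tested. Without both arrays, r was -0.26 for *Lama1* and *Lamb1*, 0.340 for *Lamb1* and *Lamc1*, and 0.890 for *Col4a1* and *Col4a2* (exact permutation, adjusted p = 0.156 over 4 pairs and 6 embryos). With an embryo left out r ran from -0.24 to 0.37 for *Lama1* and *Lamb1*, 0.298 to 0.832 for *Lama1* and *Lamc1*, 0.780 to 0.951 for *Lamb1* and *Lamc1*, and 0.854 to 0.954 for the collagen pair.

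The replicate numbers did not pair the samples, since same-numbered embryos had correlations of -0.55, -0.05, -0.59 and -0.15 between their deviations and 0 of 4 correlated best with its own number. With the replicate block 0 member probes were called, and the median stayed at 0.02.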
